A study of Mus musculus with 4 samples.

Results

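Genes whose products shape the cytoskeleton of oligodendrocytes while they wrap axons were followed in spinal cord: Gsn, Ermn, Lima1, Cdc42ep2, Anln, Tppp, Tppp3, Sirt2 and Cryab. The 9 genes were taken by symbol from a list drawn up with earlier results of these data in view, out of 22096 symbols in the tables. All 9 were found, as 15 of 28107 transcript rows, and all 9 passed the filter on low values. Whole cords were collected at postnatal day 8 from mice of mixed strain background. Control animals (2 libraries) had 1 floxed Chd7 allele beside an unfloxed one, written Chd7f/+; Olig1-cre, and conditional knockout animals (cKO, 2 libraries) carried floxed alleles only, Chd7f/f; Olig1-cre. Both groups thus carried Olig1-cre, a Cre recombinase driven from a gene of the oligodendrocyte lineage, and the controls are heterozygous for the floxed allele. Chd7 encodes a chromatin remodeler, and the study asks how it acts with Sox10 on the timing of myelination. Whether the 2 libraries of a group are from different animals is not stated, so the p-values cannot be taken to measure a spread between animals. The p-values and standard errors rest on the spread between these libraries, mostly pooled over genes and only in small part each gene's own. Sex-linked transcripts, given below, differed between cKO 1 and cKO 2 in a way that the same animal would not give.

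An oligodendrocyte first extends processes that are rich in actin filaments, and then spreads and wraps its membrane while those filaments are taken apart. Gelsolin, the product of Gsn, severs and caps actin filaments, whereas ARP2/3 and WAVE proteins build branched filaments. Microtubules, on which TPPP and SIRT2 act, carry myelin proteins and messenger RNA along the processes, and septin filaments anchored by anillin stiffen the mature sheath.

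Of the 9 genes, 7 fell in cKO cords (Gsn, Ermn, Lima1, Cdc42ep2, Anln, Tppp and Cryab) and none rose, also at an unadjusted p below 0.05. A gene is said to have fallen or risen where limma, a linear model with moderated variances, gave an adjusted p below 0.05 over all genes tested. By the same rule 6.54% of the 12913 genes tested fell and 4.13% rose. The log2 differences of the 9 genes had a median of -0.99, against -0.0028 over all genes tested. For 8 of the 9 genes both cKO libraries lay below both control libraries, which was so for 29.3% of all genes tested. Tppp3 was the exception, and Sirt2 lay lower in cKO without passing the test. Levels are FPKM, fragments scaled to transcript length and to the mapped fragments of the library, summed over the transcript rows of at least 300 bases of each gene. Differences are cKO minus control on the scale of log2(FPKM + 1), which understates the change of low genes. Without control 1, without control 2 or without cKO 1 the number that fell was again 7, and without cKO 2 it was 6. With no filter on low values 0 of the 9 passed, and with rows under 300 bases added to the sums 1 did (Lima1). None of the 9 genes has a row that short, and their differences were unchanged in both settings.

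**Figure D1:**
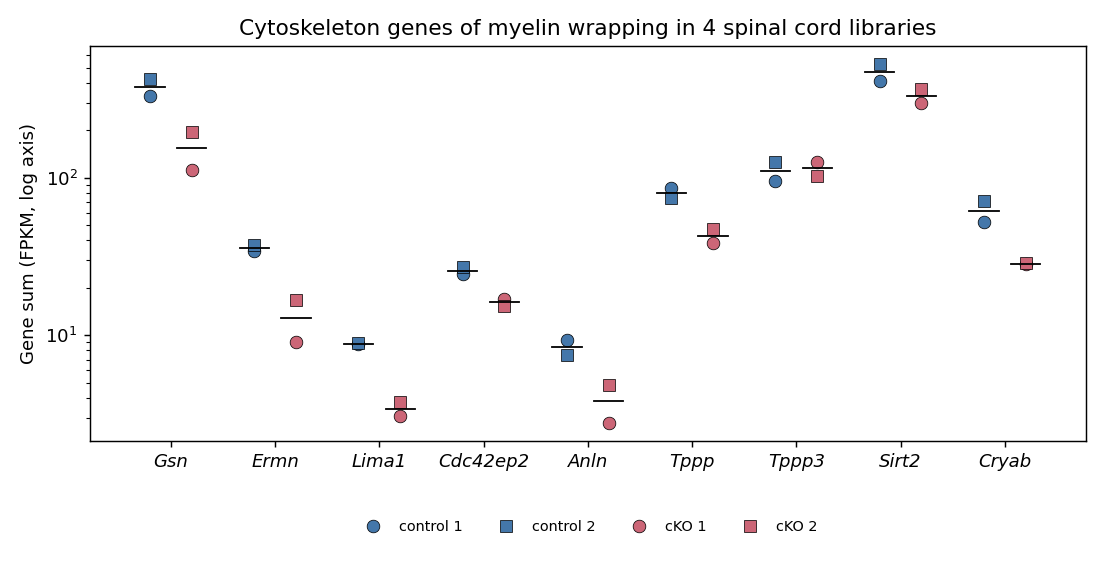
Level of each of the 9 genes in the 4 libraries (FPKM, log axis). Circles are replicate 1 and squares replicate 2 of control (blue) and cKO (red), and bars are group means. In every gene but Tppp3 both red points lie below both blue points.

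Libraries of one group were not alike. Depth, taken as read coverage per FPKM, was lowest in control 2 and was 2.07, 2.22 and 3.19 times as high in control 1, cKO 1 and cKO 2. The lowest mean coverage per base of any of the 9 genes, in its main transcript row, was 3.54, for Lima1 in cKO 1. Of the 12 myelin and oligodendrocyte markers looked at (Mag, Mog, Mobp and others), 11 fell, with a median difference of -1.20, and Mbp did not pass (limma adjusted p = 0.234). The number was 8 without control 1 or without control 2, 7 without cKO 1, 2 with rows under 300 bases added and 0 with no filter on low values. Their summed level was 16757 and 19045 FPKM in the controls against 6802 and 10694 FPKM in cKO 1 and cKO 2, so cKO 1 lay lowest. None of the 5 markers of oligodendrocyte precursors passed by limma, also at an unadjusted p below 0.05 (median 0.13). In whole tissue such as this, fewer oligodendrocytes and less RNA per oligodendrocyte cannot be told apart. Markers of tissue around the cord were highest in control 1: the 12 meningeal markers summed to 348 FPKM there, against 148 in control 2 and 184 and 161 in cKO 1 and cKO 2. The 8 Schwann cell markers summed to 152 FPKM in control 1, 66.0 in control 2, 49.0 in cKO 1 and 49.6 in cKO 2. Of 11 meningeal markers tested 7 fell and 1 rose, with a median of -0.99. The gene that rose, Igfbp2, made up much of the cKO sums, at 64.1 and 82.2 FPKM in control cords and 143 and 118 FPKM in cKO. Col1a1, a collagen of fibroblasts, was at 20.7 and 5.77 FPKM in control 1 and control 2 and at 2.85 and 2.44 FPKM in cKO. Of 5 Schwann cell markers tested 3 fell and 1 rose, with a median of -1.10. Without control 1, 2 meningeal markers and 1 Schwann cell marker fell, and under quantile scaling 1 of each list did. Of these 20 markers none was below 0.1 FPKM in every library. The female transcript Xist ranged from 51.8 to 55.6 FPKM over the control libraries but was 19.6 FPKM in cKO 1 and 0.23 FPKM in cKO 2, and the Y-linked gene Ddx3y was at 11.6 FPKM in cKO 2 and at most 0.19 FPKM in the others. Of 6 microglia markers 3 fell (Cx3cr1, P2ry12 and Tmem119) and C1qb rose, with a median of -0.35. P2ry12 was at 14.8 and 12.7 FPKM in control cords and 7.64 and 8.25 FPKM in cKO. Without cKO 2, 1 microglia marker fell, as under quantile scaling. Of 7 astrocyte markers Slc1a3 rose and none fell, with a median of 0.0004. At an unadjusted p below 0.05 by limma 2 were lower and 1 higher. Gfap and Aqp4 lay lower in both cKO libraries than in both controls without passing (limma adjusted p = 0.0965 and 0.132). The part of sex and of these other cell types in the results below was not tested.

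Gsn (chromosome 2, 35111879 to 35163422 on mm9) had, in the controls, the highest level per length of the 9 genes after Sirt2. Its gene sum was 333 and 423 FPKM in control cords and 113 and 195 FPKM in cKO 1 and cKO 2. Both cKO libraries lay well below the controls, and cKO 1 was the lower. Group means of Gsn were 378 ± 64.1 and 154 ± 58.3 FPKM (SD, n = 2 each), a difference of -1.33 ± 0.23 on the log2 scale (SE, limma adjusted p = 1.08e-04). Without control 1 the difference was -1.51, and without control 2 it was -1.16. Fibroblasts of the meninges also express gelsolin, and their part in the lower Gsn level was not tested.

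Ermn (chromosome 2, 57897526 to 57905163) encodes ermin, an actin-binding relative of the ezrin, radixin and moesin proteins that is found in myelinating oligodendrocytes. It was at 34.2 and 37.2 FPKM in the controls against 9.02 and 16.8 FPKM in cKO 1 and cKO 2. The controls differed little, and the cKO libraries differed from each other more than the controls did. The mean went from 35.7 ± 2.12 to 12.9 ± 5.52 FPKM (SD, n = 2 each), with a log2 difference of -1.46 ± 0.18 (SE, limma adjusted p = 3.76e-07), the lowest of the 9 genes.

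Lima1 (chromosome 15, 99608899 to 99705887) encodes EPLIN, which cross-links and stabilises actin filaments. Its level was 8.74 and 8.92 FPKM in control cords and 3.05 and 3.79 FPKM in cKO 1 and cKO 2. Libraries of a group lay close together and the groups were far apart. The difference was -1.16 ± 0.15 on the log2 scale (SE, n = 2 each, limma adjusted p = 8.74e-07), with means of 8.83 ± 0.132 and 3.42 ± 0.518 FPKM (SD).

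Transcript rows gave a finer view of Gsn and Lima1, which have several. Cufflinks estimates how reads are shared among overlapping transcripts, and the error of that estimate is not in the columns used here. Lima1 has a row with a long locus (NM_001113545) and a row that starts further inside the gene (NM_023063). NM_023063 was at 7.29 and 7.59 FPKM in the controls against 2.22 FPKM in both cKO 1 and cKO 2. NM_001113545 was at 1.44 and 1.34 FPKM in control cords and at 0.83 and 1.57 FPKM in cKO 1 and cKO 2, so its groups overlapped. The ratio of NM_023063 to NM_001113545 was 5.05 and 5.68 in the controls and 2.67 and 1.42 in the cKO libraries, lower in both. An exact permutation test of this ratio gave a two-sided p of 0.333, the smallest that 2 against 2 libraries allow.

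For Gsn, the row NM_146120, which starts furthest inside the gene, made up 85.6% and 90.1% of the gene sum in the controls and 71.8% and 83.8% in cKO 1 and cKO 2. It was at 285 and 382 FPKM in the controls against 81.0 and 164 FPKM in cKO. NM_001206367, from the first start, was at 46.1 and 38.6 FPKM in control cords and 18.2 and 24.4 FPKM in cKO, also lower. NM_001206368, which shares that start, went the other way, at 1.74 and 3.19 FPKM in the controls against 13.5 and 4.999 FPKM in cKO 1 and cKO 2. The last row, NM_001206369, was below 0.02 FPKM in 3 libraries, was at 2.26 FPKM in cKO 2 and did not pass the filter.

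When rows were tested one by one, none of the 14 rows of the 9 genes that passed the filter fell by limma with adjusted p, and 0.0581% of all 15494 rows did. At an unadjusted p below 0.05, 9 of the 14 were lower and 1 was higher (NM_001206368 of Gsn). With robust moderation 1 row passed. NM_023063 of Lima1 came closest in the limma fit of rows, with a log2 difference of -1.39 ± 0.13 (SE, adjusted p = 0.0813). For the 6 genes with a single row, that row held the same values as the gene sum. Ermn thus differed by -1.46 in both fits, with a limma adjusted p of 0.225 for its row and 3.76e-07 for its gene sum. For Cryab these were 0.206 and 2.49e-05. The fit of rows pooled variances less, with 2.71 prior degrees of freedom against 36.3 for gene sums.

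**Figure D2:**
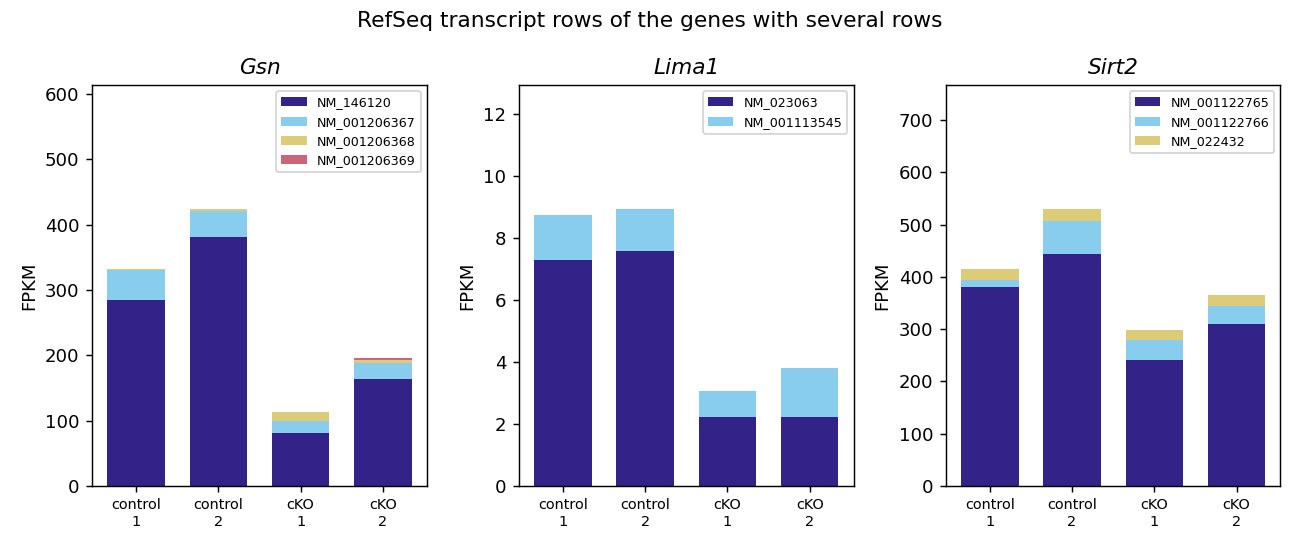
FPKM of each RefSeq transcript row of Gsn, Lima1 and Sirt2 in the 4 libraries, stacked to the gene sum. In Lima1 the dark segment, NM_023063, is 7.29 and 7.59 FPKM high in the controls and 2.22 FPKM in cKO, while the light segment is between 0.83 and 1.57 FPKM in all 4 libraries.

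Sequences around the starts of Ermn, of the main Gsn row and of the Lima1 row that was lower in cKO are shown because these 3 genes had the lowest differences. They come from RefSeq on GRCm38.p6, in which 7 of the 9 genes had an entry (Cryab and Tppp3 had none), and run from 250 bases before the start to 50 after it. The 3 Gsn starts of the table lie 10385 and 15636 bases apart, as do those of the deposited rows on mm9, which places the third entry at NM_146120. The Lima1 entry lies 6 bases from the GENCODE start of NM_023063 and 55307 bases from that of NM_001113545. Capitals mark matches, on either strand, to ACAAAG or ACAATG (words of the kind SOX proteins bind), to CAGCTG (an E-box, the same on both strands) and to the CArG box of serum response factor.
Gsn, chr2:35282130-35282429, plus strand: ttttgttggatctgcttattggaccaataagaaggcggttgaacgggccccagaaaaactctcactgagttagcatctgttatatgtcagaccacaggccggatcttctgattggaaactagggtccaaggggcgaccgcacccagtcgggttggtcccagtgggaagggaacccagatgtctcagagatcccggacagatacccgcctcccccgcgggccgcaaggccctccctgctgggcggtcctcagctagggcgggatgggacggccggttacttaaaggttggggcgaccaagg
Ermn, chr2:58052815-58053114, minus strand: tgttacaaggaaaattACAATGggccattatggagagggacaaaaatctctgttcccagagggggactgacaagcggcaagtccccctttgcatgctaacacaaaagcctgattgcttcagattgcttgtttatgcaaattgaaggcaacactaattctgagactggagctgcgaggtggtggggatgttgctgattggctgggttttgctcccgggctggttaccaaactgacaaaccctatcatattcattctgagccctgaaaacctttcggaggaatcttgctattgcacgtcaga
Lima1, chr15:99820100-99820399, minus strand: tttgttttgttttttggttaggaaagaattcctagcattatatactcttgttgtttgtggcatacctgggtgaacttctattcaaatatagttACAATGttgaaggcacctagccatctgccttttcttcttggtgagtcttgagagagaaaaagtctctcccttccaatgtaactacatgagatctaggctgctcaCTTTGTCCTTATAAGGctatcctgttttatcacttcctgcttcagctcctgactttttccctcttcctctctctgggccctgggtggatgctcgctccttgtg
The Ermn window held ACAATG at position -234 from the start. The Lima1 window held ACAATG at -157, ACAAAG on the opposite strand at -53 and a CArG box at -47, the last 2 side by side. The Gsn window held none of these words. Among 32851 windows of 300 bases in the table, 18.7% held ACAAAG, 12.6% ACAATG, 16.3% CAGCTG and 1.63% a CArG box. Among the other windows of the 9 genes, Sirt2 held ACAATG on the opposite strand and Cdc42ep2 and the first and second Gsn starts held CAGCTG, and Anln and Tppp held none. GC content was 58.7% in the Gsn window, 47.0% in that of Ermn and 42.3% in that of Lima1, with a median of 52.7% over all windows. These matches describe letters only, and binding was not measured in the files used here.

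Cdc42ep2 (chromosome 19, 5917556 to 5924816) encodes an effector of the small GTPase CDC42 of the Borg family, whose members bind septins. It was at 24.5 and 27.0 FPKM in control cords and at 17.0 and 15.4 FPKM in cKO 1 and cKO 2. The groups did not overlap, and here cKO 2 was the lower of its group. The log2 difference was -0.63 ± 0.16 (SE, n = 2 each, limma adjusted p = 0.00516), the smallest of the 7 that fell. Without cKO 2 it was -0.57 and did not pass (limma adjusted p = 0.0570).

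Anln (chromosome 9, 22135658 to 22193650) encodes anillin, a scaffold that links actin to septins, in the cleavage furrow of dividing cells and in mature myelin. It was at 9.29 and 7.47 FPKM in the controls against 2.78 and 4.86 FPKM in cKO 1 and cKO 2. Every cKO value lay below every control value. The mean went from 8.38 ± 1.29 to 3.82 ± 1.47 FPKM (SD, n = 2 each), a log2 difference of -0.99 ± 0.17 (SE, limma adjusted p = 7.41e-05). Since anillin also marks dividing cells, 9 proliferation markers (Mki67, Top2a and others) were looked at after its values had been seen. Of the 7 that passed the filter none fell or rose by limma, also at an unadjusted p below 0.05, their median difference was 0.17, and the 9 summed to 24.1 and 23.0 FPKM in control cords and 25.6 and 25.8 FPKM in cKO. The part of dividing cells in the Anln values was not tested.

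Septins, the filament proteins that anillin gathers, were partly lower too. Of the 11 genes of the septin and anillin list 4 fell and none rose: Anln, Sept4, Sept2 and Sept8, with a median of -0.32 over the list. Sept4 was at 90.3 and 112 FPKM in the controls against 53.0 and 55.8 FPKM in cKO 1 and cKO 2 (log2 difference -0.88 ± 0.18, SE, limma adjusted p = 8.05e-04). Sept2 differed by -0.62 ± 0.17 (limma adjusted p = 0.0147) and Sept8 by -0.51 ± 0.16 (limma adjusted p = 0.0372). Sept2 did not pass without control 1 or without cKO 1 (limma adjusted p = 0.121 and 0.383), nor did Sept8 (0.0834 and 0.543), which also missed the threshold without control 2 (0.142) and under the 3 other scalings tried, median-of-ratios, TPM and quantile (Sept2 under TPM). Sept7, the core subunit of septin filaments, was at 147 and 128 FPKM in control cords and 90.7 and 106 FPKM in cKO without passing (limma adjusted p = 0.108). Sept3, Sept5, Sept6, Sept9 and Sept11 had differences above 0, from 0.16 to 0.37, none of which passed.

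Tppp (chromosome 13, 74146867 to 74173201) encodes the tubulin polymerization promoting protein, which bundles and nucleates microtubules and is abundant in oligodendrocytes. It was at 85.7 and 74.3 FPKM in the controls against 38.4 and 47.2 FPKM in cKO 1 and cKO 2. The groups were apart, with means of 80.0 ± 8.07 and 42.8 ± 6.19 FPKM (SD, n = 2 each). The log2 difference was -0.89 ± 0.18 (SE, limma adjusted p = 4.92e-04).

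Its paralog Tppp3 (chromosome 8, 107991392 to 107995322) also binds microtubules and is expressed outside the oligodendrocyte lineage. It was at 95.02 and 126 FPKM in control cords and at 126 and 103 FPKM in cKO 1 and cKO 2, so the groups overlapped fully. The log2 difference of 0.06 ± 0.20 (SE, n = 2 each) did not pass (limma adjusted p = 0.886), had a 95% interval from -0.33 to 0.46, and lay below 0 under quantile scaling (-0.0088), without control 1 (-0.14) and without cKO 1 (-0.08). Within a library, the ratio of Tppp to Tppp3 was 0.90 and 0.59 in the controls and 0.30 and 0.46 in cKO 1 and cKO 2. The ratio was lower in both cKO libraries, and an exact permutation test gave a two-sided p of 0.333, the smallest this design allows. Tppp2, the remaining paralog, was at most 0.15 FPKM in any library and was not tested.

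Sirt2 (chromosome 7, 29551771 to 29573684) encodes a deacetylase of alpha-tubulin that is abundant in myelin. With 415 and 529 FPKM in the controls against 297 and 364 FPKM in cKO 1 and cKO 2 it had the highest level per length of the 9 genes. Both cKO libraries lay below both controls. The log2 difference of -0.51 ± 0.24 (SE, n = 2 each) did not pass (limma adjusted p = 0.187), with a 95% interval from -0.996 to -0.02 before any adjustment. Without the mean-variance trend in limma it passed at the same difference (adjusted p = 0.0495). Its main row, NM_001122765, was at 380 and 444 FPKM in control cords and 240 and 309 FPKM in cKO. NM_022432 was nearly level, at 20.7 and 22.0 FPKM in the controls against 18.2 and 21.2 FPKM in cKO, and NM_001122766 was uneven between the controls (13.8 and 63.1 FPKM). None of the other sirtuins, nor the tubulin deacetylase gene Hdac6 or the acetylase gene Atat1, passed by limma. At an unadjusted p below 0.05 Hdac6 was higher and Sirt2 lower.

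Cryab (chromosome 9, 50560863 to 50564738) encodes alpha-B crystallin, a small heat shock protein that guards actin and intermediate filaments against aggregation and is expressed by oligodendrocytes. It was at 52.5 and 71.0 FPKM in control cords and at 28.3 and 28.7 FPKM in cKO 1 and cKO 2. Both cKO libraries sat at nearly the same level, below both controls. The mean went from 61.8 ± 13.1 to 28.5 ± 0.271 FPKM (SD, n = 2 each), a log2 difference of -1.07 ± 0.17 (SE, limma adjusted p = 2.49e-05). Without control 1 the difference was -1.29, and without control 2 it was -0.86. Schwann cells express Cryab as well, and their part in the lower Cryab level was not tested.

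Other small heat shock proteins did not follow Cryab as a family. Hspb1 rose, from 7.41 and 10.8 FPKM in the controls to 11.8 and 18.7 FPKM in cKO 1 and cKO 2 (log2 difference 0.67 ± 0.18, SE, limma adjusted p = 0.00849). That call was lost without control 1 (limma adjusted p = 0.147), without cKO 2 (0.277) and with the other scalings (0.0706 by median-of-ratios, 0.142 by TPM and 0.111 by quantile). Hspb8 was at 14.6 and 18.2 FPKM in the controls against 9.92 and 13.6 FPKM in cKO without passing (limma adjusted p = 0.0615), though it did without control 1 (0.0182) or without cKO 2 (0.0169). Hspb6 was level, between 6.53 and 6.90 FPKM in all libraries. Hspb2, the neighbour of Cryab on chromosome 9, was between 0.56 and 0.70 FPKM, and Cryaa, Hspb3 and Hspb7 also did not reach the filter.

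**Figure D3:**
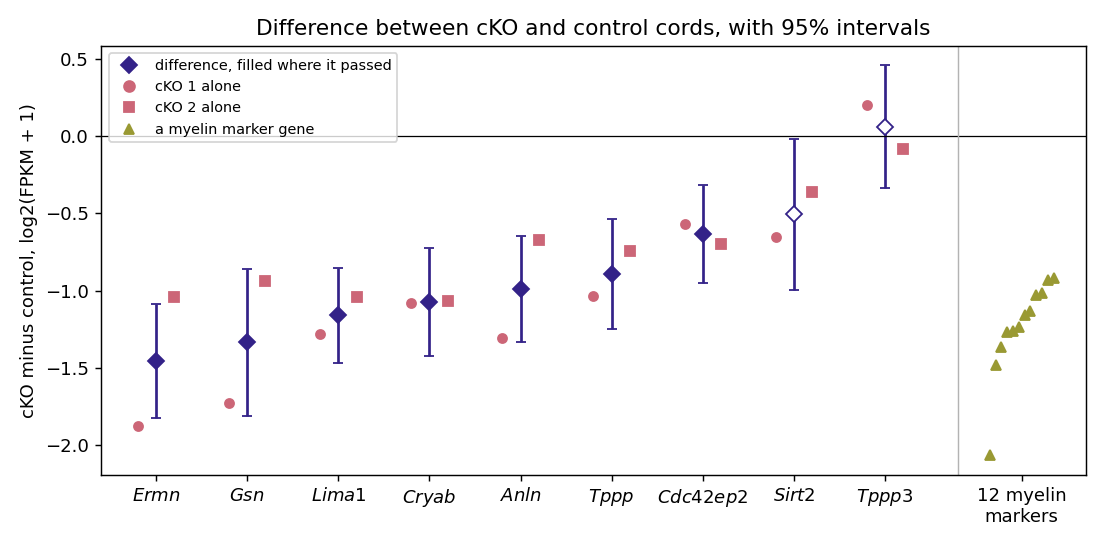
Difference between cKO and control for each of the 9 genes, with its 95% interval (diamonds, filled where limma's adjusted p was below 0.05), beside the value of each cKO library against the control mean and the 12 myelin markers. Of the 9 genes, 5 lie between the lowest and the highest marker (-2.06 and -0.92), and Tppp3 lies at 0.06.

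cKO 1 lay farther below the control mean than cKO 2 in 7 of the 9 genes, the exceptions being Cdc42ep2 and Tppp3. Relative to the control mean, the median of the 9 genes was -1.08 in cKO 1 and -0.75 in cKO 2. Myelin markers showed the same order, with a median of -1.47 in cKO 1 and -0.89 in cKO 2. Ermn and Gsn spread widest between the cKO libraries, at -1.87 and -1.04 for Ermn and -1.73 and -0.94 for Gsn. Cryab hardly differed between them (-1.08 and -1.06).

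Relatives of the actin genes, and the other cytoskeleton genes, were taken from 13 lists. With no filter on low values none of their genes passed, and with rows under 300 bases added Lima1 alone did. Over all genes tested 6.54% fell and 4.13% rose. A single gene that fell in a list of 15 or more lies near the former share. In the gelsolin family Gsn was the 1 of 4 tested genes that fell. Svil, coding for supervillin, was at 2.18 and 2.05 FPKM in control cords and 1.35 and 1.61 FPKM in cKO (limma adjusted p = 0.184), Capg and Flii differed by -0.15 and -0.01, and Vil1, Vill, Avil and Scin did not reach the filter. Among Ermn and its relatives, Ermn was the 1 of 5 that fell. Rdx and Msn, coding for radixin and moesin, differed by -0.34 and -0.31 without passing (limma adjusted p = 0.190 and 0.224), while Ezr differed by 0.19 and Nf2 by 0.01. Whether Ermn differed more than its relatives was not tested across genes. The ratio of Ermn to Rdx was 0.84 and 1.06 in the controls and 0.32 and 0.53 in the cKO libraries.

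Of 19 genes of actin disassembly and turnover only Gsn fell, none rose, and the median difference was -0.05. Cofilin 1 (Cfl1), which severs filaments as gelsolin does, was at 678 and 851 FPKM in the controls against 828 and 725 FPKM in cKO, with overlapping groups. Of 18 ARP2/3 and WAVE genes Arpc1b fell and none rose (median -0.02), near the 6.54% of all genes tested that fell. Arpc1b, a subunit of the ARP2/3 complex, was at 71.3 and 81.7 FPKM in control cords and 45.1 and 50.2 FPKM in cKO (log2 difference -0.67 ± 0.17, SE, limma adjusted p = 0.00830). It did not pass without control 2 (limma adjusted p = 0.101) or without cKO 1 (0.1402). Its paralog Arpc1a differed by -0.29 without passing (limma adjusted p = 0.343).

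Upstream of actin, 2 of 5 CDC42 effector genes fell and none rose (median 0.08). Beside Cdc42ep2 this was Cdc42ep1, at 14.8 and 19.7 FPKM in the controls against 11.0 and 11.5 FPKM in cKO (limma adjusted p = 0.0164), a call lost without control 2 (0.224), without cKO 1 (0.183) and under the 3 other scalings. Cdc42ep3 lay above 0 by 0.40 without passing (limma adjusted p = 0.0851), and Cdc42ep4 and Cdc42ep5 differed by 0.08 and 0.11.

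Among 12 LIM domain actin binders Lima1 and Pdlim2 fell and Ablim3 rose (median -0.19). Pdlim2 went from 31.2 and 37.5 FPKM in the controls to 15.7 and 17.7 FPKM in cKO (log2 difference -0.99 ± 0.16, SE, limma adjusted p = 2.83e-05). Ablim3 went from 11.2 and 10.8 to 23.5 and 17.3 FPKM (log2 difference 0.81 ± 0.16, limma adjusted p = 4.41e-04), and did not pass without cKO 1 (0.0857).

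Tubulins and most of their binding proteins did not fall with Tppp. None of 13 tubulin genes passed, at a median of 0.21, while at an unadjusted p below 0.05 by limma 4 were higher (Tubb3, Tubb5, Tubb2a and Tubb2b) and 0 lower. Tubb4, the tubulin that myelinating oligodendrocytes share with neurons, was at 415 and 594 FPKM in the controls against 324 and 390 FPKM in cKO (limma adjusted p = 0.228). Tubb3, a neuronal tubulin, was at 276 and 319 FPKM in control cords and 543 and 424 FPKM in cKO (limma adjusted p = 0.0552), and without cKO 2 it passed (0.0106). The 8 neuron markers had a median of 0.39, and 1 of them, Slc32a1, rose. None did without control 1, without control 2, without cKO 1, or under median-of-ratios or TPM scaling, and without cKO 2 the number was 2. The summed level of the 8 markers, Tubb3 itself among them, was 1496 and 1509 FPKM in the controls against 2223 and 1863 FPKM in cKO. The part of neuronal RNA in these tubulin values was not tested. Of 15 microtubule-associated proteins Mtap7 fell and none rose (median 0.10), near the 6.54% of all genes tested that fell. At an unadjusted p below 0.05 by limma 4 of them were higher (Mtap6, Mapt, Stmn1 and Stmn2) and 1 lower (Mtap7). Mtap7, coding for ensconsin, which recruits kinesin to microtubules, went from 23.7 and 25.1 to 8.13 and 13.8 FPKM (log2 difference -1.13 ± 0.17, SE, limma adjusted p = 1.20e-05).

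Of 15 motor protein genes Myo1d and Kif5b fell and none rose (median -0.28). Myo1d, a myosin, was at 6.37 and 6.43 FPKM in control cords and at 1.92 and 3.35 FPKM in cKO 1 and cKO 2 (log2 difference -1.06 ± 0.16, SE, limma adjusted p = 1.60e-05). Kif5b, the heavy chain of the kinesin that moves cargo along microtubules in processes, differed by -0.54 ± 0.17 (limma adjusted p = 0.0290), and did not pass without control 1 (0.266), without cKO 1 (0.535) or under the 3 other scalings. Mtap7, Myo1d, Pdlim2 and Sept4 passed without each of the 4 libraries in turn.

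**Figure D4:**
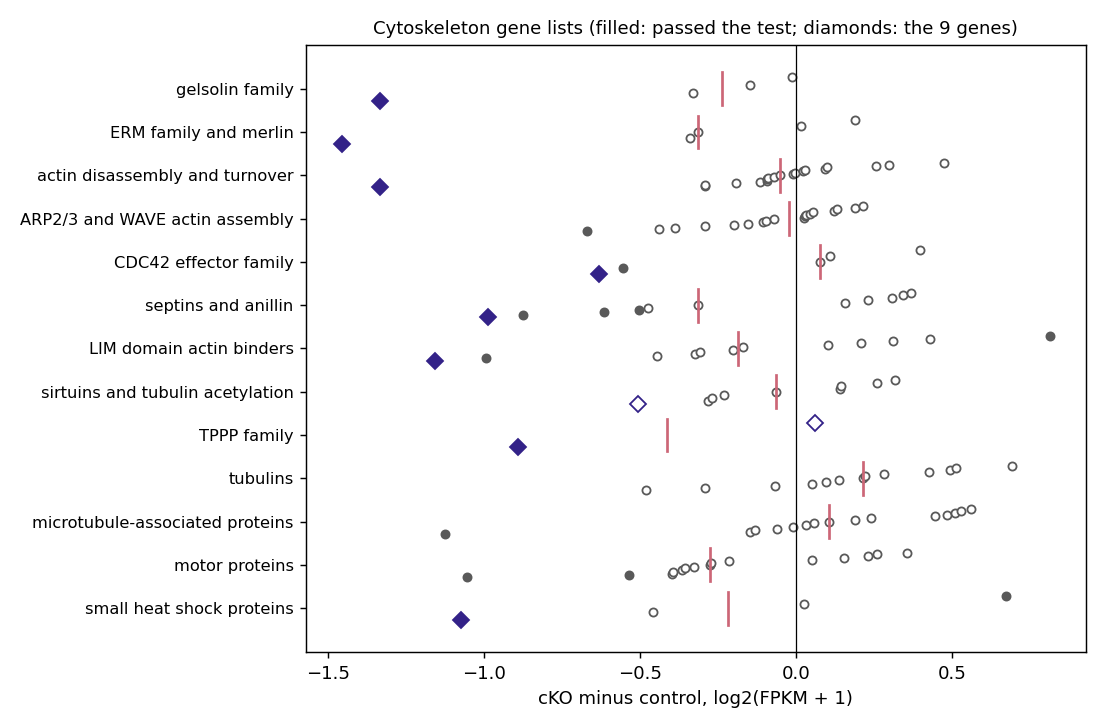
Difference between cKO and control of every tested gene in 13 cytoskeleton lists. Filled symbols passed limma's adjusted p, diamonds are genes among the 9 followed, and red bars are list medians, which lie between -0.41 and 0.21.

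Which other genes ran most like each of the 9 was asked by the distance between profiles over the 4 libraries, each centred on its own mean of log2(FPKM + 1), among 8471 genes with a mean of at least 5 FPKM. Nearest to Gsn were Cldn11, coding for a tight junction protein of myelin (distance 0.18), then Tmem88b (0.19) and Ermn (0.21). Among the nearest to Ermn were Tmem88b (0.12) and Gsn. Lima1 ran closest to Aspa, coding for the aspartoacylase of oligodendrocytes (0.14), Nipal4 and Ell2. Anln lay nearest to Piga (0.08), Slc12a2 and Dock10, Tppp to Zfp160 (0.09), Trim13 and Pik3r3, and Cdc42ep2 to BC028528 (0.06), Med20 and Mavs. Sirt2 lay nearest to Zfp276 (0.06), Sorbs3 and Stx2, Cryab to Srpk3 (0.09), Arc and Cyp27a1, and Tppp3 to Cuta (0.02), Acads and Vps72. With 4 libraries many genes can share a profile, so these names are descriptions.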

How the data were processed

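Whole spinal cord RNA was sequenced from 2 control and 2 cKO libraries (Trizol extraction, TruSeq RNA kit, per the labels' protocols). The authors deposited FPKM per RefSeq transcript, with CASAVA, TopHat, Cufflinks and Cuffdiff and the build mm9 named in the submitters' processing notes and no versions. Beside it stands the coverage signal, reads per base of a transcript, per the file headers. No read totals were used here, and relative depth was taken from coverage divided by FPKM.

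Rows were matched between tables by transcript and locus, and 315 rows whose status was not OK in all 4 libraries were left out. FPKM of rows of at least 300 bases was summed per symbol. Genes with a mean of at least 1 FPKM were tested as log2(FPKM + 1) with limma 3.58.1 in R 4.3.3 (genotype, moderated variances with a mean-variance trend of 36.3 prior and 2 residual degrees of freedom), with Benjamini-Hochberg adjustment over all genes. The variance is thus mostly pooled over genes. FPKM is not a count, so no count model was used. The same fit was made on single rows, where the prior degrees of freedom were 2.71, and the script was tested on simulated data.

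The 9 genes and the gene lists were chosen with earlier results of these data known, and the proliferation and sex-linked lists were added after the values had been seen. Named were the 9 genes, up to 4 genes of each cytoskeleton list with the smallest p, and members of the families of the 9 genes; other genes named were chosen after their values were seen. Of 239 listed symbols, 237 matched by symbol and 2 by transcript accession. Locus starts were raised by 1 to count from 1. Alternatives changed the pseudocount, filter, scaling, variance model, pairing, row length or left out a library. Results of 1 gene list and of 1 gene near Ermn in profile are not reported here.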

Additional observations from a re-analysis of the deposited data

How the results depend on the processing

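The limits are those of 2 libraries a group and of a variance pooled over genes. Of all genes tested, 1378 were called in either direction, 600 under TPM scaling, 717 under quantile scaling, 1 with no filter on low values and 53 with short rows added to the sums. Leaving out 1 library gave 384 to 1438 calls, the lowest without cKO 1. Among the 9 genes, 7 fell in each setting apart from these: 0 with no filter, 1 with short rows added, 8 without the mean-variance trend, 8 with a crossed block, and 6 to 7 when 1 library was left out. With no filter and with short rows added, the log2 differences of the 9 genes were unchanged (Gsn -1.33 and Ermn -1.46 in each). None of the 9 genes has a row under 300 bases, so short rows did not enter their sums. Which part of the fit brought the loss was not tested. The number for which both cKO libraries lay below both controls was 8 under each scaling. Short rows could not change that number, and leaving out a library could not lower it. In the fit of single rows, 1 passed with robust moderation instead of 0. Tppp3 reversed its sign under quantile scaling (-0.0088), without control 1 (-0.14) and without cKO 1 (-0.08), ranged from -0.14 to 0.26 when 1 library was left out, and did not pass in any of 16 settings. With the replicate number as a block 996 genes were called, and the 7 that fell among the 9 genes were 7 again. Nothing in the labels pairs the numbers, and deviations of same-numbered libraries correlated at -0.24 across genes. With crossed numbers, a setting added after seeing the data, 2178 genes were called. Where a library is left out, the lone library of its group is assumed to vary like the others. Depth also limits the isoform rows: the rarer Lima1 row had a mean coverage per base of 0.96 in control 2.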
